A study of Mus musculus with 9 samples.

Results

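The olfactory receptor genes described here are the 200 mouse Olfr genes with the most reads in a set of medullary thymic epithelial cell (mTEC) libraries. They were chosen by their measured levels, among 1094 symbols made of Olfr and a number, as those with the highest sum of normalised counts over 4 libraries: Aire-KO mTEChi, WT mTEChi, and the mTEChi and mTEClo of a second experiment. A normalised count is a read count divided by a size factor that evens out sequencing depth. The sums ran from 1974 for Olfr56 to 59.7 for Olfr741, with a median of 90.7. Just inside the limit lay Olfr455 at 59.9 and Olfr741 at 59.7, and just outside it Olfr352 and Olfr641, both at 59.6. Levels and folds within these 4 libraries are therefore descriptions, whereas the 5 libraries of the actinomycin D series did not enter the choice.

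RNA sequencing was done on 9 libraries of mTEC sorted from B6 mice 4 weeks old, 1 library per group, from pools of 4 thymi in the pairs and of a number of thymi not stated in the time series. Aire-KO mTEChi (cells high in MHC class II) came from Aire-/- mice, whose germline Aire gene carries a deletion, and WT mTEChi was its control. In the second experiment one pool of WT mice gave both mTEChi and mTEClo (cells low in MHC class II). The remaining 5 were of WT mTEChi, untreated (0 h) or cultured for 1.5, 3, 6 and 12 h with 1 µM actinomycin D, which blocks transcription. A TruSeq poly-A kit was used throughout, except for the 4 treated libraries, which were amplified by SMARTer and made with Nextera. Relative to 0 h, treatment and kit therefore cannot be told apart. With no replicate, an interval below covers counting error only.

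Each olfactory sensory neuron of the nose normally transcribes a single allele of a single receptor gene, and the receptor couples through the G protein subunit Golf to adenylate cyclase. In the thymus, mTEC transcribe low amounts of many genes of other tissues, olfactory receptors among them, so that T cells reacting to their products can be removed or diverted. Aire, a nuclear protein of mature mTEChi, raises transcription of a large share of these tissue-restricted genes. Olfactory receptor genes lie in clusters along the chromosomes, are split into the fish-like class I and the larger class II, and usually have an intronless coding sequence.

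To show how alike the receptors are in a short stretch, the same 30 bases are given for 10 members on which the results turn. The 10 were chosen after their values were seen. The window holds the end of the third transmembrane helix, and the capitals mark the codons for Asp-Arg-Tyr, the triad that touches the G protein. All are coding exon sequence of build mm9 as annotated in gencode vM1, read 5′ to 3′ on the gene's strand.
Olfr1136 (chr2:87533657-87533686, minus strand): atggcctttGATAGATACaaggccatcagc
Olfr1140 (chr2:87586706-87586735, plus strand): atggcctttGATCGGTACaaggccatcagc
Olfr99 (chr17:37416992-37417021, minus strand): atggctattGACAGGTATgccgctatctgt
Olfr78 (chr7:109891138-109891167, minus strand): atggcctttGACCGGTACgtggctatctgc
Olfr558 (chr7:109858132-109858161, plus strand): atggcctttGACCGCTATgtggccatttgc
Olfr433 (chr1:175972434-175972463, plus strand): atggctctgGACCGCTACcttgctatctgt
Olfr424 (chr1:176067228-176067257, plus strand): atggctattGACAGGTATgttgccatctgt
Olfr323 (chr11:58439166-58439195, minus strand): atggcttatGACCGGTACctggccatctgc
Olfr222 (chr11:59384848-59384877, minus strand): atggctctgGACCGCTACgtggccatctgt
Olfr920 (chr9:38563626-38563655, plus strand): atggcctatGATCGTTATgtggctatctgc
The neighbours Olfr1136 and Olfr1140 differed at 2 of the 30 bases and were identical at 73.3% of their whole coding sequence. Olfr78 and Olfr558, both class I receptors, differed at 4 bases of the window and were identical at 63.6% of the coding sequence. Over the 194 members with an annotated coding sequence, the closest other olfactory receptor gene was identical at a median of 84.7% of bases (range 49.7 to 98.7%). At least 95% identity was found for 33 members. With reads of 50 bases, 130 members shared at least 1 stretch of that length with the transcript of another gene, and 22 shared more than 50% of theirs. How reads with several matches were counted is not given in the sources used here, so the level of such a member can include reads of its copy. Of the 10 members shown, Olfr1136, Olfr78, Olfr558, Olfr424, Olfr323 and Olfr222 shared no 50-base stretch with another gene. Olfr1140 shared 0.721% of its stretches, Olfr920 0.576%, Olfr433 8.17% and Olfr99 18.5%. Olfr100 and Olfr102 had identical counts in all 9 libraries and cannot be told apart.

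The libraries held 74161592 to 195444567 reads on RefSeq entries in the pairs, 91610143 at 0 h, and 1746825 to 21124165 in the treated libraries. All 6 mTEChi markers of a fixed list, Aire and H2-Aa among them, were at least 3-fold higher in mTEChi than in mTEClo, and 4 of 5 mTEClo markers were at least 3-fold lower. Aire itself had 748 CPM (counts scaled to an equal library total) in Aire-KO mTEChi and 283 CPM in WT mTEChi. That count covers the whole transcript, including what lies outside the deleted part, and so does not check the genotype. The columns of this pair carry no library names, and which of them is WT was taken from the study's own code.

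Reads of the 200 genes were found in every library, but the number of genes with reads differed widely. At least 1 read was present for 92 members in Aire-KO mTEChi and for 143 in WT mTEChi. In the second experiment 199 members had a read in mTEChi and 199 in mTEClo. In the untreated 0 h library, which had no part in the choice, 183 members had at least 1 read and 119 had at least 10. Their summed level was 31.2 CPM (95% interval 30.3 to 32.2) in Aire-KO mTEChi, against 46.0 CPM (44.7 to 47.4) in WT mTEChi. In the other pair it was 62.2 CPM (61.1 to 63.4) in mTEChi, against 127 CPM (125 to 130) in mTEClo, and it was 89.6 CPM (87.7 to 91.6) at 0 h. The 3 untreated WT mTEChi libraries thus spanned 46.0 to 89.6 CPM, with the Aire-KO library below and the mTEClo library above that range. In bulk RNA, fewer cells that transcribe a receptor and less RNA in each of them cannot be told apart.

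**Figure D1:**
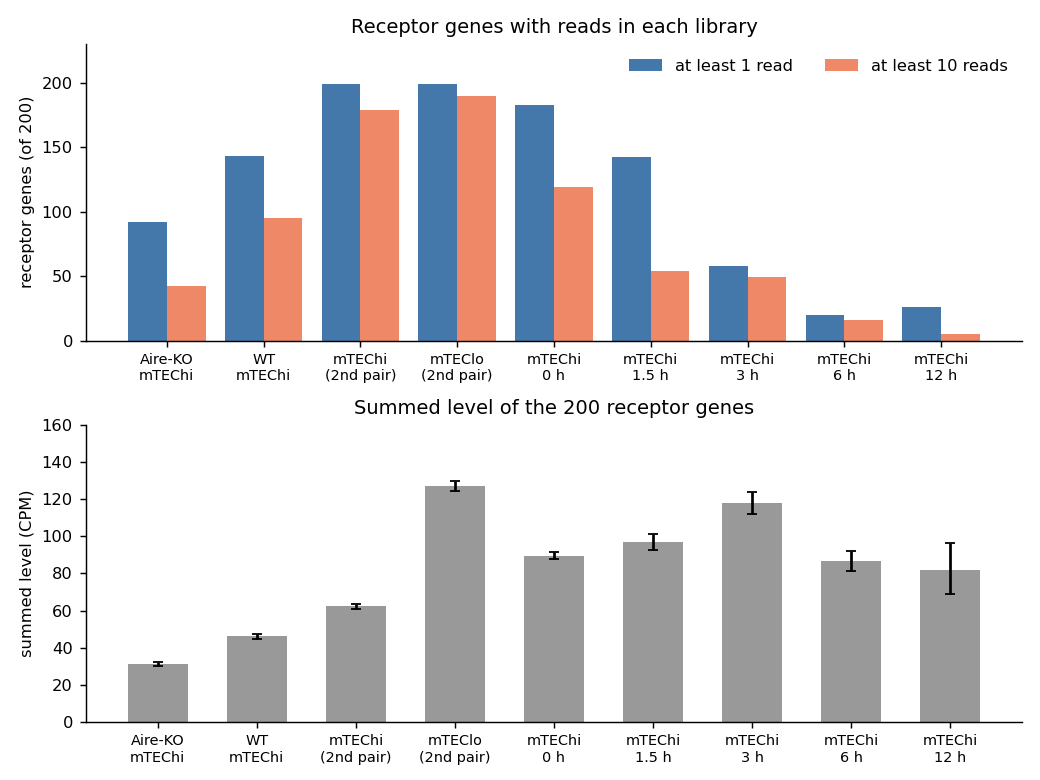
Number of the 200 receptor genes with at least 1 and at least 10 reads (upper panel) and their summed level in CPM with exact Poisson 95% intervals (lower panel) in each of the 9 libraries. Aire-KO mTEChi had the lowest sum, 31.2 CPM, and mTEClo the highest, 127 CPM, and the number of genes with at least 1 read ran from 20 at 6 h to 199 in mTEChi and mTEClo of the second experiment.

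A few genes carried much of these sums. The 3 members with the most reads made up 43.9% of the members' reads in Aire-KO mTEChi, 29.4% in WT mTEChi, 17.6% in mTEChi and 12.8% in mTEClo of the second experiment, and 21.6% at 0 h. The mTEClo library also decided much of the membership. It gave a median of 67.7% of a member's sum and over 50% of it for 131 members. In the upper 100 ranks this median was 44.8%, and in the lower 100 ranks 82.0%. The lower 100 had 215 reads in Aire-KO and 545 in WT mTEChi, where the upper 100 had 3728 and 3846.

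Receptor genes outside the selection also had a few reads each, above all in the second experiment. Of the 894 olfactory receptor genes outside the selection, 89.9% had at least 1 read in its mTEChi and 93.7% in its mTEClo, against 12.0% in Aire-KO mTEChi, 19.8% in WT mTEChi and 58.0% at 0 h. The Vmn1r genes, which encode pheromone receptors of the vomeronasal organ, had a median of 4.33 reads per kb in that mTEChi and 7.60 in mTEClo. In Aire-KO and WT mTEChi their median was 0, and at 0 h it was 2.12. A member was above the 97.5th percentile of Vmn1r genes in 52 cases in Aire-KO mTEChi and 87 in WT mTEChi. The same held for 108 members in mTEChi and 122 in mTEClo of the second experiment, and for 61 at 0 h. What part such low-level reads have in the values of single members was not tested, and class counts with the Vmn1r median taken off are given at the end.

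The order of the members was much alike in the 3 untreated WT mTEChi libraries. Spearman's rho across the 200 genes was 0.77 between the WT libraries of the pairs, 0.78 between WT mTEChi of the Aire pair and 0 h, and 0.81 between mTEChi of the second experiment and 0 h. Aire-KO and WT mTEChi gave 0.48. The mTEClo library had a negative rho to the other untreated libraries, with -0.25 to mTEChi of the same mice and -0.42 to 0 h. Choosing genes by a sum over mTEClo and mTEChi libraries can by itself give a negative rho between them. The 0 h library had no part in the sum but was much alike in order to mTEChi libraries that had. The sign therefore cannot be read as a difference in order, and no rho over all measured olfactory receptor genes was computed. The rho values are descriptions across genes, which are not independent replicates, and the sum that chose the members includes 4 of the libraries. Levels nevertheless varied between the WT mTEChi libraries. For the 83 members with at least 10 reads in each, the highest CPM was a median of 2.65 times the lowest (range 1.05 to 15.9), against 1.82 times for the 22903 entries of the series that met the same minimum.

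Olfr461 on chromosome 6 and Olfr1136 on chromosome 2 had the highest sums after Olfr56. Olfr461 had 1.46 CPM in Aire-KO and 5.75 CPM in WT mTEChi, 2.84 CPM in mTEChi and 8.20 CPM in mTEClo of the second experiment, and 8.91 CPM at 0 h. It was lowest in the Aire-KO library, and the mTEClo value lay within the range of the WT mTEChi libraries. Olfr1136 had 9.04 CPM in Aire-KO and 2.53 CPM in WT mTEChi, 3.48 CPM in mTEChi and 0.254 CPM in mTEClo, and 4.64 CPM at 0 h. Among the untreated libraries this receptor was therefore highest in Aire-KO mTEChi and lowest in mTEClo.

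Olfr99 of chromosome 17 had 1.80 CPM in Aire-KO and 0.964 CPM in WT mTEChi, 1.54 CPM in mTEChi and 1.40 CPM in mTEClo, and 4.43 CPM at 0 h, so that the Aire-KO value lay within the WT range. Olfr287, whose transcript overlaps that of another gene, had 0.222 CPM in Aire-KO and 0.430 CPM in WT mTEChi, 0.826 CPM in mTEChi and 1.92 CPM in mTEClo, and 0.406 CPM at 0 h. Its level was highest in mTEClo.

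Other members of high sum stayed within 2-fold in both pairs. Olfr157 had 0.863 CPM in Aire-KO and 1.03 CPM in WT mTEChi, 0.982 CPM in mTEChi and 0.698 CPM in mTEClo, and 0.977 CPM at 0 h. Olfr98, whose transcript overlaps another annotated gene, had 0.895 CPM in Aire-KO and 0.765 CPM in WT mTEChi, 0.731 CPM in mTEChi and 1.08 CPM in mTEClo, and 1.13 CPM at 0 h. For both genes, the 5 untreated levels differed less than those of Olfr461 or Olfr1136. Olfr920 had 0.792 CPM in Aire-KO and 0.786 CPM in WT mTEChi, 1.21 CPM in mTEChi and 1.03 CPM in mTEClo, but 5.84 CPM at 0 h.

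The gene with the highest sum, Olfr56, has a transcript that overlaps Ifi47, an interferon-induced GTPase gene. Olfr56 had 2.42 CPM in Aire-KO and 5.25 CPM in WT mTEChi, and 4.63 CPM in mTEChi and 6.20 CPM in mTEClo. Its reads came to 3.73%, 4.78%, 4.17% and 4.09% of those of Ifi47 in these libraries, a nearly fixed share. At 0 h it had 2 reads beside 17190 for Ifi47. The pair values of Olfr56 are thus uncertain as levels of a receptor.

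**Figure D2:**
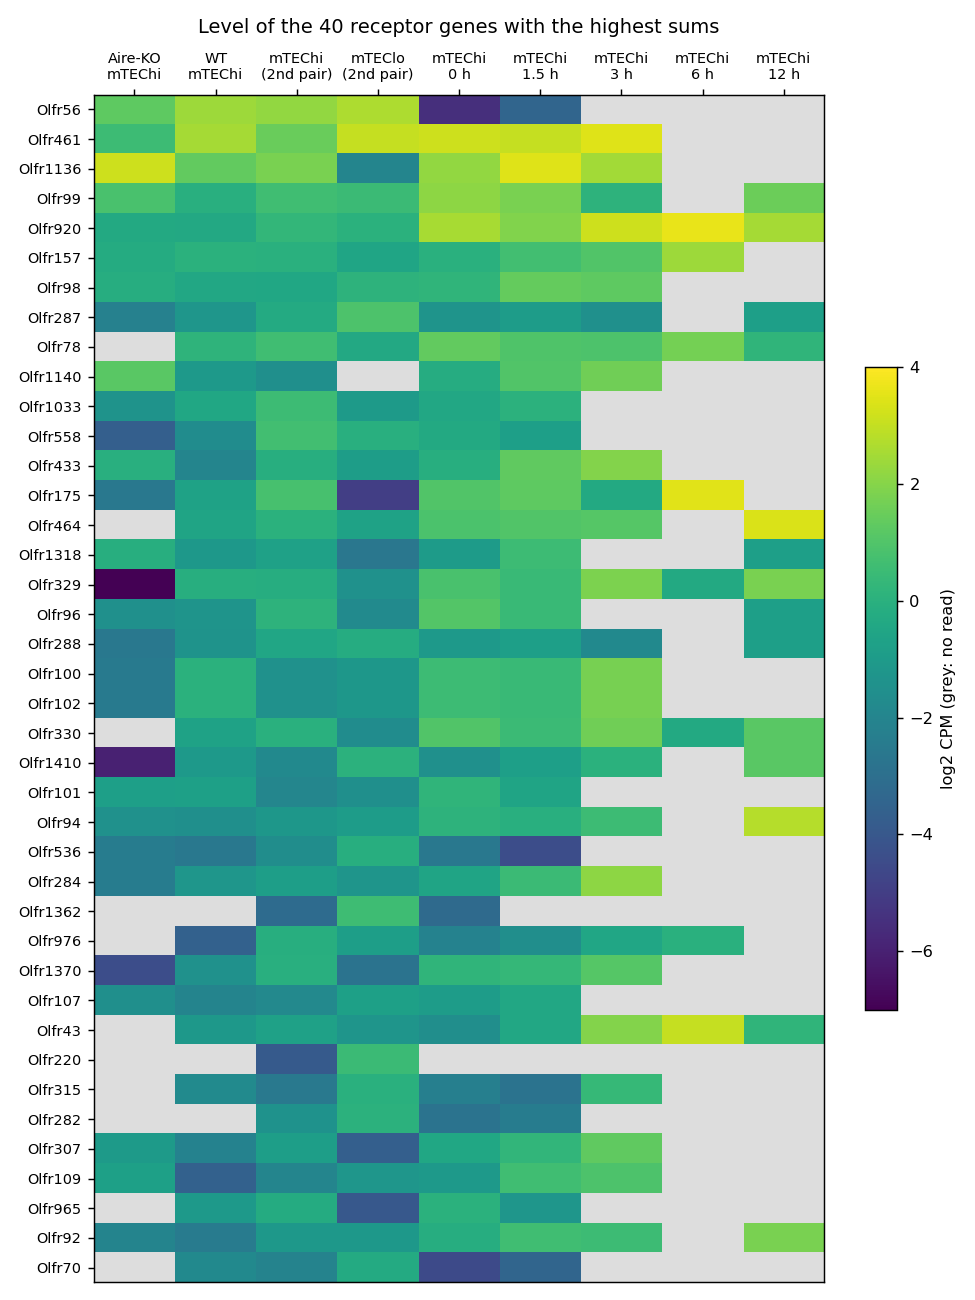
Level (log2 CPM, colour; grey means no read) of the 40 receptor genes with the highest sums, one gene per line, in each of the 9 libraries. Among the untreated libraries Olfr1136 was highest in Aire-KO mTEChi at 9.04 CPM, and Olfr78 had no read there.

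To see how the receptors stood without Aire, Aire-KO mTEChi was set against WT mTEChi. Of the 200 members, 104 had at least 10 normalised counts over both libraries, and the other 96 were too low to be classed, 47 of them with no read in either. Of the 104, 62 were at least 3-fold lower in Aire-KO mTEChi, 9 at least 3-fold higher and 23 within 2-fold. Over all 26761 entries at the same minimum, 21.1% were at least 3-fold lower, 2.03% at least 3-fold higher and 65.5% within 2-fold. The direction was not particular to the members. Of 42 other olfactory receptor genes classed, 31 were at least 3-fold lower and 6 higher, with a median fold of 0.214. Of 12 Vmn1r genes classed, 10 were lower and 2 higher. The median fold of the classed members was 0.257, against 0.978 over all entries. Among the 35 members with at least 50 normalised counts, however, the median fold was 0.951, and 11 were at least 3-fold lower. These values chose the members and are a description, and a gene could pass the minimum through its WT library alone. No read at all was found in Aire-KO mTEChi for 36 of the 62, a depth at which a count of 0 allows up to 0.0238 CPM.

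Olfr78, a class I receptor that responds to short-chain fatty acids and lactate and is known from the kidney and the carotid body, was among those with no read. It had 0 reads in Aire-KO mTEChi and 106 reads (1.11 CPM) in WT mTEChi, and was at least 41.3-fold lower if 3 reads are taken for 0, or 33.0-fold by the exact interval. It had 1.52 CPM in mTEChi, 0.777 CPM in mTEClo and 2.54 CPM at 0 h, so that every WT library was above the Aire-KO one. Olfr329, not placed once in the annotation used, had 1 read in Aire-KO and 90 reads in WT mTEChi, a fold of 0.0095 (95% interval 0.000238 to 0.0543).

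The other lowest members by the naming rule were Olfr921, Olfr1410, Olfr464, Olfr330, Olfr222, Olfr965, Olfr43, Olfr1344, Olfr1349 and Olfr701. Olfr921 had 2 reads in Aire-KO and 50 in WT mTEChi, and Olfr1410 had 2 and 46 reads. The remaining 8 of this group had no read in Aire-KO mTEChi and 31 to 64 reads in WT mTEChi. Olfr464 and Olfr1344 each overlap another annotated gene.

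**Figure D3:**
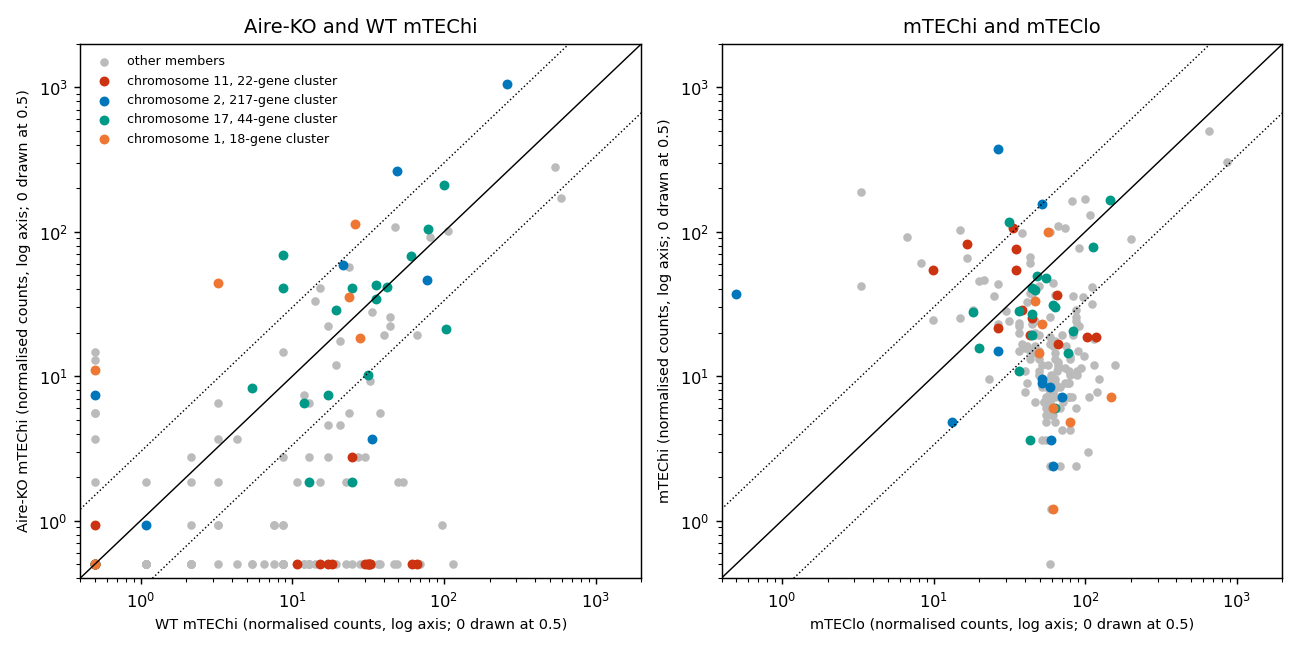
Normalised counts of the 200 receptor genes in Aire-KO against WT mTEChi (left) and in mTEChi against mTEClo (right), both axes logarithmic, with a count of 0 drawn at 0.5, the diagonal as a solid line and 3-fold limits dotted. Members of the 22-gene cluster of chromosome 11 (red) lie along the bottom of the left panel, and Olfr1136 and Olfr1140 of the 217-gene cluster (blue) lie above its upper limit.

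The members at least 3-fold higher in Aire-KO mTEChi were Olfr424, Olfr109, Olfr1140, Olfr31, Olfr97, Olfr433, Olfr1136, Olfr18 and Olfr16. Olfr1136 had 1141 reads in Aire-KO and 241 in WT mTEChi, a fold of 4.05 (95% interval 3.52 to 4.67). Its neighbour Olfr1140 had 285 reads in Aire-KO and 45 in WT mTEChi, a fold of 5.42 (3.95 to 7.59). Between these genes, Olfr1138 had 64 and 20 reads, a fold of 2.74 (1.63 to 4.78), so that the 3 neighbours were all higher in Aire-KO mTEChi. Olfr433 had 122 reads in Aire-KO and 24 in WT mTEChi, a fold of 4.35 (2.79 to 7.05), and Olfr424 of the same cluster 48 and 3 reads, a fold of 13.7 (4.41 to 68.7). On chromosome 17, Olfr109 had 75 and 8 reads, a fold of 8.02 (3.87 to 19.3). Olfr31, Olfr18 and Olfr16 had no read in WT mTEChi and 12 to 16 in Aire-KO mTEChi, and were at least 3.42-fold higher if 3 reads are taken for 0, with exact intervals from 2.38-fold upwards.

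The Aire-KO library was next set against all 3 untreated WT mTEChi libraries. Of the 190 members with at least 10 reads over these 4 libraries, 109 (57.4%) had a CPM in Aire-KO mTEChi below all 3 WT libraries. The same held for 43.0% of all entries. A CPM above all 3 was found for 12 members (6.32%), against 14.5% of all entries. Of the other olfactory receptor genes at that minimum, 31.8% were below all 3 and 2.26% above. Of the Vmn1r genes, 50.6% were below and 3.70% above. Among the 83 members with at least 10 reads in each WT library, 64 were below all 3 in Aire-KO mTEChi, 49 of them at least 3-fold below the lowest. By contrast, 5 were above all 3 (Olfr433, Olfr1136, Olfr1140, Olfr1317 and Olfr1318), and 0 were at least 3-fold above the highest. Of the 22903 entries at the same minimum, 43.0% were below all 3 and 15.2% above. For the 3-fold counts no share over all entries was computed. The minimum of 10 reads in each library was set on WT mTEChi alone, so a gene low there could not enter. Olfr1136 had 9.04 CPM in Aire-KO mTEChi against 2.53 to 4.64 CPM in WT mTEChi. For Olfr424 and Olfr433 the WT library of the pair was the lowest of the 3. Olfr433 had 0.966 CPM in Aire-KO mTEChi, against 0.251, 0.921 and 0.933 CPM in the WT mTEChi libraries. Olfr424 had 0.380 CPM in Aire-KO mTEChi, against 0.0314, 0.307 and 0.538 CPM. Markers of other cells also differed within the Aire pair. A list of 6 dendritic cell and macrophage markers, 4 of them at least 3-fold lower, summed to 396 CPM in Aire-KO mTEChi and 688 CPM in WT mTEChi, with none at 0 and 232 to 688 CPM over the 3 WT libraries. A list of 14 olfactory sensory neuron markers, 6 of them at least 3-fold lower, summed to 85.9 CPM in Aire-KO mTEChi and 148 CPM in WT mTEChi, with Stoml3 and Rtp2 at 0 in Aire-KO mTEChi. Its sum over the 3 WT libraries was 75.6 to 148 CPM, so that both Aire-KO sums lay within the WT range. Single markers differed from these sums. In the first list only Lyz2, at 381 CPM in Aire-KO mTEChi, lay within its own WT range. Itgax, C1qb, Ptprc, Xcr1 and Csf1r were below all 3 WT libraries. In the second list Gap43, Stoml3, Lhx2, Tubb3, Cnga2, Cnga4, Rtp1 and Rtp2 were below all 3, and Ncam1 was above all 3. Omp, Gng8, Ebf1, Ebf2 and Gng13 lay within. Sums of further lists were below all 3 WT libraries in Aire-KO mTEChi. Endothelial markers summed to 27.9 CPM there, against 33.0 to 57.5 CPM in the WT libraries. Thymocyte markers summed to 27.8 CPM against 29.6 to 43.7 CPM, and male germ cell markers to 6.34 CPM against 6.95 to 10.8 CPM. The fibroblast sum, 68.5 CPM, lay within its WT range of 43.7 to 110 CPM. The part of these differences in the receptor values was not tested.

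The direction in Aire-KO mTEChi differed by cluster. Olfactory receptor genes with starts within 1 Mb of the next were joined, which gave 49 clusters, and 196 members lay in 36 of them on 15 chromosomes. Of the 22 receptor genes of chromosome 11 at 58.3 to 59.4 Mb (mm9), 13 were members, among them Olfr222, Olfr323, Olfr328 and Olfr330. These 13 had 4 reads in Aire-KO and 344 reads in WT mTEChi, a summed fold of 0.00995, and all 12 that could be classed were at least 3-fold lower. In the other libraries they had 931 reads in mTEChi, 382 in mTEClo and 778 at 0 h, so that of the 5 untreated libraries only Aire-KO mTEChi had next to no reads of them. Further clusters showed the same direction. On chromosome 1 at 94.4 to 94.5 Mb, 7 of 8 genes were members, with 2 reads in Aire-KO and 103 in WT mTEChi. On chromosome 7 at 6.39 to 6.52 Mb, all 8 genes were members, with 7 reads in Aire-KO and 111 in WT mTEChi. On chromosome 11 at 73.2 to 74.2 Mb, 7 of 28 genes were members, with 0 reads in Aire-KO and 83 in WT mTEChi.

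Less far below WT were the clusters of chromosome 19, with a fold of 0.158, the 12 members of chromosome 9 beyond 37.6 Mb, with 0.413, and chromosome 15, with 0.477. In other clusters the sums were alike or higher in Aire-KO mTEChi. The cluster of chromosome 17 at 37.2 to 38.5 Mb, which lies beside the MHC class I region, held 19 members among 44 genes. These had 797 reads in Aire-KO and 575 in WT mTEChi, a summed fold of 1.19 (1.06 to 1.32), with 4 members at least 3-fold lower and 2 at least 3-fold higher of 17 classed. The cluster of chromosome 1 at 174.9 to 176.4 Mb, with 8 members among 18 genes, had 240 and 75 reads, a fold of 2.74 (2.10 to 3.60). At 1.90 CPM its Aire-KO sum nevertheless lay within the WT range, since the WT sums were 0.786 CPM in the pair, 1.75 CPM in mTEChi of the second experiment and 2.21 CPM at 0 h. The cluster of chromosome 2 at 85.2 to 90.1 Mb is the largest, with 217 genes, of which 11 were members. Its members had 1553 reads in Aire-KO and 409 in WT mTEChi, a fold of 3.25 (2.91 to 3.63), of which Olfr1136 alone gave 1141 and 241 reads. Within this cluster Olfr998 ran the other way, with 4 reads in Aire-KO and 31 in WT mTEChi.

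**Figure D4:**
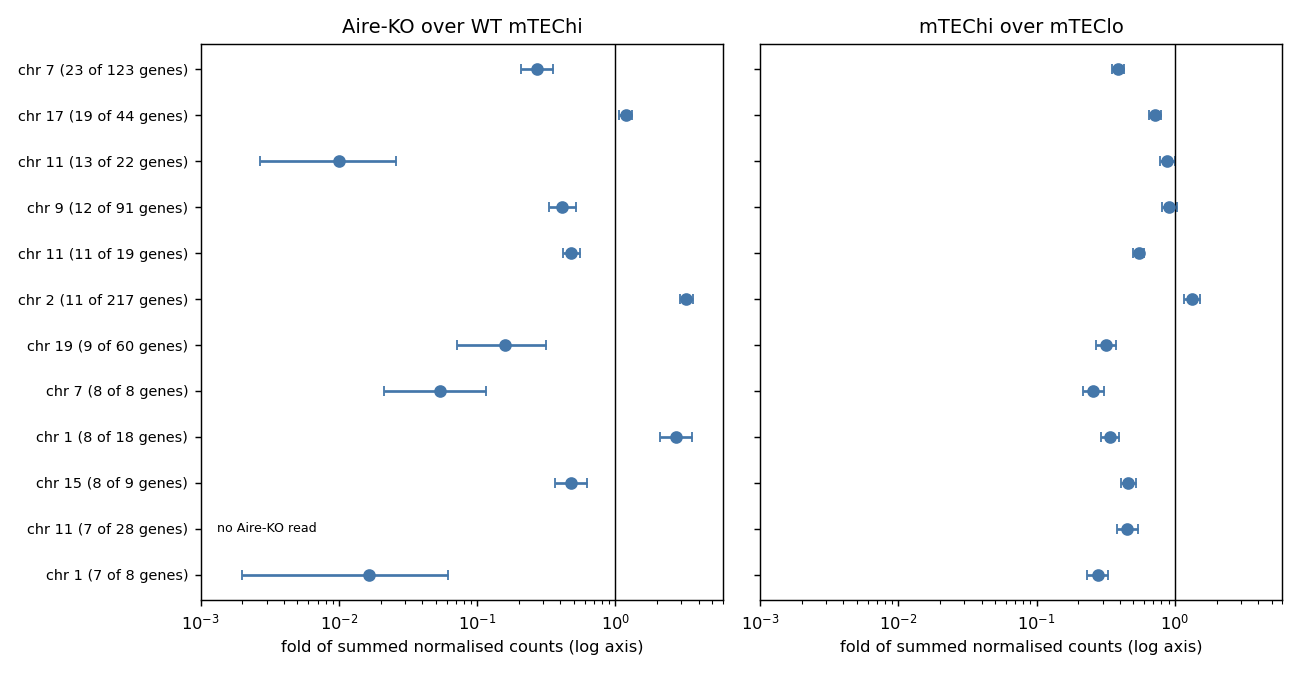
Fold of the summed normalised counts of the members of each cluster with at least 7 members, Aire-KO over WT mTEChi (left) and mTEChi over mTEClo (right), on logarithmic axes with exact 95% counting intervals; labels give the members among all receptor genes of the cluster. The folds in the left panel run from 0.00995 on chromosome 11 to 3.25 on chromosome 2, a wider range than in the right panel.

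The second experiment set mature mTEChi against mTEClo of the same mice. All 200 members passed the minimum, of which 111 were at least 3-fold lower in mTEChi, 13 at least 3-fold higher and 48 within 2-fold. Over all 29212 entries, 12.8% were at least 3-fold lower in mTEChi, 11.8% at least 3-fold higher and 61.1% within 2-fold. The median fold was 0.275 for the members and 1.01 for all entries. The mTEClo library took part in choosing the members. Of the olfactory receptor genes outside the selection, 522 of the 698 classed were at least 3-fold lower in mTEChi and 12 higher, and of 169 Vmn1r genes 124 were lower and 4 higher. Of 33 bitter taste receptor genes (Tas2r), 33 were lower. In CPM, 140 members were higher in mTEClo than in all 3 untreated WT mTEChi libraries, against 32.4% of all entries, and 23 were lower than in all 3, against 30.8%. The mTEClo library also had more RNA of other stromal cells. A list of 4 endothelial markers summed to 37.1 CPM in mTEChi and 243 CPM in mTEClo, and a list of 4 fibroblast markers to 43.7 CPM in mTEChi and 433 CPM in mTEClo, with none at 0 in either. Their part in the receptor values was not tested.

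The members most reduced in mTEChi had few or no reads in the WT mTEChi libraries, while Olfr16 was among those higher in Aire-KO than in WT mTEChi. Olfr220 had 0.0669 CPM in mTEChi and 1.41 CPM in mTEClo (12 and 89 reads), a fold of 0.0487 (95% interval 0.0243 to 0.0894), and no read in Aire-KO mTEChi, in WT mTEChi or at 0 h. Olfr16, a receptor for the odorant lyral that is also known from sperm, had 2 reads in mTEChi and 37 in mTEClo, a fold of 0.0195 (0.00228 to 0.0757). Olfr556, Olfr1346, Olfr457, Olfr173, Olfr675, Olfr1113, Olfr11, Olfr381, Olfr414 and Olfr492 had 0 to 8 reads in mTEChi and 35 to 63 reads in mTEClo. None of these 10 had a read in WT mTEChi, and at 0 h they had 0 to 3 reads.

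The members at least 3-fold higher in mTEChi were found by contrast in all WT mTEChi libraries. Olfr175 had 1.76 CPM in mTEChi and 0.0317 CPM in mTEClo (316 and 2 reads), a fold of 57.1 (15.7 to 473), with 0.639 CPM in WT mTEChi of the Aire pair and 2.00 CPM at 0 h. It had 0.166 CPM in Aire-KO mTEChi. Olfr965 had 0.854 CPM in mTEChi and 0.0634 CPM in mTEClo, a fold of 13.8 (5.29 to 51.3), and no read in Aire-KO mTEChi. Both genes were thus higher in mTEChi than in mTEClo and lower in Aire-KO than in WT mTEChi. Olfr1136 had a fold of 14.1 (8.60 to 24.8) and Olfr1140, with 62 reads in mTEChi and 0 in mTEClo, was at least 7.46-fold higher if 3 reads are taken for 0, or 5.89-fold by the exact interval, while both were higher in Aire-KO mTEChi. The remaining members of this group were Olfr301, Olfr307, Olfr1370, Olfr324, Olfr328, Olfr1318, Olfr96, Olfr330 and Olfr1033, with folds of 3.01 to 12.6. Of these, Olfr324, Olfr328 and Olfr330 belong to the chromosome 11 cluster with 4 reads in Aire-KO mTEChi.

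Of 17 receptors listed for a known ligand, use or site, 9 were members: Olfr15, Olfr16, Olfr56, Olfr78, Olfr90, Olfr544, Olfr558, Olfr1393 and Olfr1508. Olfr558, a class I receptor for short-chain fatty acids, had 0.0792 CPM in Aire-KO and 0.314 CPM in WT mTEChi (10 and 30 reads), a fold of 0.285 (0.124 to 0.599). It had 1.57 CPM in mTEChi, 0.951 CPM in mTEClo and 0.812 CPM at 0 h. The Aire-KO value was below all WT libraries. Olfr544, which responds to azelaic acid, had 7 reads in Aire-KO and 3 in WT mTEChi, 25 in mTEChi and 54 in mTEClo, and 1 at 0 h. Olfr1393, known from the kidney tubule, had 0 reads in Aire-KO and 8 in WT mTEChi, 33 in mTEChi and 22 in mTEClo, and 17 at 0 h. Olfr90 had 11 reads in Aire-KO and 29 in WT mTEChi, 52 in mTEChi and 37 in mTEClo, and 58 at 0 h. Olfr15 and Olfr1508 had 0 to 2 reads in Aire-KO mTEChi, in WT mTEChi and at 0 h. In the second experiment Olfr15 had 21 reads in mTEChi and 40 in mTEClo, and Olfr1508 12 and 49. The class I cluster of chromosome 7 at 109.6 to 112.5 Mb, which surrounds the beta-globin genes, held 23 members among 123 genes. Their sums had a fold of 0.272 (0.207 to 0.354) in Aire-KO over WT mTEChi and of 0.387 (0.352 to 0.426) in mTEChi over mTEClo.

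The time series asked how long transcripts lasted, relative to all others, once transcription was blocked. The members' summed level was 89.6, 97.0, 118, 86.7 and 81.9 CPM in the libraries of 0, 1.5, 3, 6 and 12 h. Members with at least 1 read numbered 183, 142, 58, 20 and 26 at these times. The sum thus stayed near its starting level, while far fewer genes had a read from 3 h on. Depth fell as well, with 91610143, 21124165, 13953047, 11295960 and 1746825 reads on RefSeq entries at these times. Of 889 other olfactory receptor genes, 516, 278, 36, 18 and 20 had at least 1 read. The part of depth in the fall was not tested. CPM is a share of each library, and a loss common to all genes leaves it unchanged. How much of a transcript lasted in absolute terms can therefore not be read from these values. Among the 64 members with at least 30 reads at 0 h, 0 were without a read at 1.5 h, 23 (35.9%) after 3 h, 51 (79.7%) after 6 h and 43 (67.2%) after 12 h. Among all 8744 entries within the same range of reads at 0 h (30 to 812), 0.0457%, 21.1%, 52.3% and 43.0% had none. The 2 sets differed in depth within that range: at an unchanged level, a member would have had a median of 10.4 reads at 3 h and an entry 37.4.

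Olfr461 had 8.91, 8.24 and 10.9 CPM at 0, 1.5 and 3 h and no read at 6 and 12 h. Olfr1136 had 4.64, 10.9 and 5.55 CPM at 0, 1.5 and 3 h and no read at 6 and 12 h. At 3 h neither gene was below its 0 h CPM, though Olfr1136 was lower than at 1.5 h. At 6 h both were at 0, where a count of 0 allows up to 0.268 CPM by counting error alone. In that library 20 members had at least 1 read, 20 at least 3 and 16 at least 10. Counts were thus either 0 or mostly 10 and more, and a 0 there can stand for a higher level than this limit. Olfr920 had 5.84, 3.76, 9.01, 12.3 and 5.77 CPM at the 5 times and was the only member with at least 10 reads in all 4 treated libraries. Olfr78 had 2.54, 1.95, 1.87, 3.21 and 1.15 CPM. Both genes were thus still read at 12 h, Olfr920 with 10 reads and Olfr78 with 2.

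**Figure D5:**
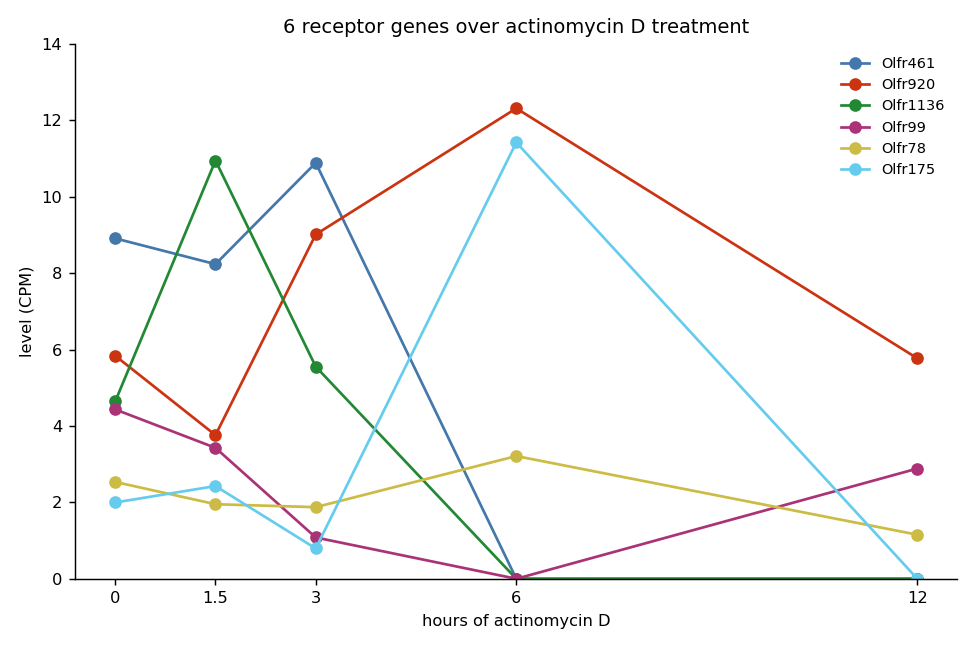
Level in CPM of 6 receptor genes (points joined by lines, 1 library per time) over hours of actinomycin D. Olfr461 and Olfr1136 had 10.9 and 5.55 CPM at 3 h and no read at 6 and 12 h, and Olfr920 had 12.3 CPM at 6 h and 5.77 CPM at 12 h.

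A slope over hours among the 4 treated libraries could be fitted for 34 members. By edgeR's quasi-likelihood test with Benjamini-Hochberg adjustment over 20652 entries, 0 members and 0% of all entries passed 0.05. At an unadjusted p under 0.05 there were 2 members, Olfr1136 and Olfr461, and 1896 entries. The smallest adjusted p of a member was 0.445, for Olfr1136, with a slope of -2.00 log2 units per hour. DESeq2 gave an adjusted p for 5507 entries, none of them a member, of which 143 had a lower and 245 a higher level with time. Without the 6 h library, 2 members and 1156 entries were called lower and 718 entries higher by edgeR, and without the 12 h library 0 members, 518 entries lower and 87 higher, so that the counts over all entries rest on single libraries. Relative to 0 h, the median log2 change of the 132 members with at least 10 reads over the 5 libraries was 0.02 at 1.5 h, -2.89 after 3 h, -3.76 after 6 h and -3.58 after 12 h. For all 23850 such entries it was -0.13, -0.18, -0.54 and -0.60. Counts of 0 were found for 8.33%, 56.1%, 84.8% and 80.3% of the members. Restricted to a summed count of 30 or more, the median at 3 h was -0.11 for members and -0.16 for all entries. Of the 64 members with at least 30 reads at 0 h, 33 (51.6%) were above their 0 h level at 3 h. Among all 8744 entries within the same range of reads at 0 h, this share was 44.1%.

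The members differed from the other olfactory receptor genes in features that the rule of choice did not name. A feature that goes with level can differ through the choice by level alone. In all, 196 members and 878 other olfactory receptor genes had a place in the annotation. Members made up 39.8% of the 211 genes in clusters of up to 20 receptor genes, 16.9% of the 367 genes in clusters of 21 to 60, and 10.1% of the 496 genes in larger clusters. They also lay nearer to other protein-coding genes. The nearest one was within 50 kb for 103 members (52.6%) and for 157 (17.9%) of the other olfactory receptor genes, with medians of 47.1 and 168 kb. In the 7 clusters of at least 40 genes, members were 24 of 126 genes (19.0%) in the outer 10% at each end and 56 of 529 (10.6%) further in. The median GC content of the coding sequence was 49.3% for members and 43.1% for the others. Across 1071 olfactory receptor genes GC content and level had a Spearman's rho of 0.07 in Aire-KO mTEChi, 0.24 in WT mTEChi, 0.44 in mTEChi, 0.54 in mTEClo and 0.29 at 0 h. The Asp-Arg-Tyr triad shown above, directly preceded by methionine, alanine and tyrosine, was found in the translation of 71 members (36.6%) and of 415 others (47.3%). These shares describe the genes, and no test was made because neighbours and copies are not independent.

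The genes that serve olfactory receptors in the nose were also present in mTEC. Of a list of 30 such genes 29 were measured. In Aire-KO against WT mTEChi 10 of them were at least 3-fold lower, 0 higher and 15 within 2-fold, with a median fold of 0.623. Lhx2, a homeodomain factor needed for receptor gene choice, had 2 reads in Aire-KO and 133 in WT mTEChi, and Rtp1, which helps receptors reach the cell surface, had 15 and 155 reads. Its relative Rtp2 had 0 and 22 reads. The channel subunit Cnga4 had 8 and 98 reads, whereas its partner Cnga2 had 1365 and 1639 reads. Omp, the marker of mature olfactory sensory neurons, had 36.9 CPM in Aire-KO and 67.1 CPM in WT mTEChi, and 66.2 CPM in mTEChi and 9.42 CPM in mTEClo, but 15.8 CPM at 0 h, below the Aire-KO value. In mTEChi against mTEClo, 8 of the 29 were at least 3-fold higher and 1 lower. Cnga2 and Omp were thus higher in mTEChi than in mTEClo, unlike most of the receptors.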

How the data were processed

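Per the labels, reads failing the CASAVA filter were dropped by the authors, paired reads were trimmed to 50 bases, and Bowtie 1.0.0 was run against mm9. Reads lying wholly within RefSeq exons were then counted by bedtools, without strand. The deposited files of the actinomycin D series hold these read counts. The deposited signal of the pairs is a count over a DESeq size factor set by the authors (normalised count), from which whole reads were recovered here (100% of values whole within 0.1). Deposited folds and p-values of the authors' own comparisons were not used. The mTEChi and mTEClo libraries of the second experiment, the Aire pair and the 0 h library are single libraries of separate sorts, and how far they differ for technical reasons is unknown.

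The members, the lists and the receptors listed as known were chosen with earlier results of these data known. One entry was read per symbol, the one with the highest mean. CPM was taken over the 25401 entries common to all files. Folds are ratios of normalised counts among entries with at least 10 over both libraries, classed at 3-fold and 2-fold after the study, with 3 reads taken for a count of 0. Their 95% intervals are exact Clopper-Pearson intervals from reads, and intervals of summed CPM are exact Poisson. They cover counting error only, because PCR copies of a molecule are not independent. Slopes over hours were fitted with edgeR 4.0.16 in R 4.3.3 (quasi-likelihood test, TMM factors, default filter, Benjamini-Hochberg adjustment at 0.05), with DESeq2 1.42.0 as an alternative. Log2 changes from 0 h had 0.5 reads added. The slope and the fold interval were tested on simulated data, the slope with changes put only into entries with many reads, unlike most members. Coding sequences came from gencode vM1 through Biopython 1.88, and the rest was done in Python 3.11.15 (scipy 1.17.1, pandas 2.3.3, numpy 2.4.6, matplotlib 3.10.9).

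The text names the 12 members with the highest sums, up to 12 per direction and pair with the largest folds (at least 3-fold, at least 30 reads in the higher library), listed receptors of known ligand, use or site, members with at least 10 reads in each treated library or called by the slope, and those beside the limit of the selection. Other members named were chosen after their values were seen. Alternatives covered scaling, minimum, fold limit, the value for 0, close copies, overlapping genes, the 100 highest members, the mean of the 3 untreated WT mTEChi libraries, and each treated library left out.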

Additional observations from a re-analysis of the deposited data

How the results depend on the processing

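Of the counts, 18 alternative values moved by more than 1.5 times, and no value reversed. In Aire-KO against WT mTEChi the number of members at least 3-fold lower, 62, was 11 with a minimum of 50 normalised counts (35 members classed) and 39 where the exact interval had to lie beyond 3-fold. The number at least 3-fold higher, 9, was 4 with that minimum, 5 by the exact interval, 5 among the 100 highest members, 15 at a limit of 2-fold and 3 against the mean of the 3 untreated WT mTEChi libraries. In mTEChi against mTEClo the 111 lower members were 39 among the 100 highest members, and the 13 higher members were 7 by the exact interval. Among alternatives chosen after seeing the data, taking off the median Vmn1r reads per kb gave 105 lower and 25 higher members of 198 classed. With CPM over all entries of each file, members above all 3 WT mTEChi libraries in Aire-KO mTEChi were 7 in place of 12. Without the 0 h library they were 18. Selection without the mTEClo library shared 131 of the 200 members and gave 86 lower and 12 higher members in Aire-KO mTEChi. Leaving out 1 treated library at a time, 0 to 2 members had a lower level with time, and among all entries 0 to 1156 were called lower and 0 to 718 higher. DESeq2 called 143 entries lower and 245 higher. With at least 30 reads, the median log2 change of members at 3 h was -0.11 in place of -2.89, and with 2 reads added -1.42. With the 3 untreated WT mTEChi libraries taken as replicates against the lone library, edgeR called 2066 entries lower and 21 higher in Aire-KO mTEChi, and DESeq2 3738 and 81; for mTEClo edgeR called 475 lower and 357 higher, and DESeq2 1824 and 973, at an adjusted p of 0.05 over all entries. The 24 alternatives for single genes changed no direction. The cause of these shifts was not tested, beyond the smaller number of members classed. No paired analysis was possible because the groups compared share fewer than 2 replicate numbers. Depth limits the treated libraries most: by counting error alone, a count of 0 allows up to 0.143 CPM at 1.5 h and 1.73 CPM at 12 h.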

Other observations

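Receptors of the other chemical senses were measured in the same libraries. The Tas2r genes, which encode bitter taste receptors, summed to 6.38 CPM in Aire-KO and 37.5 CPM in WT mTEChi, 7.65 CPM in mTEChi and 84.7 CPM in mTEClo of the second experiment, and 55.5 CPM at 0 h. Of 30 that could be classed, 22 were at least 3-fold lower in Aire-KO than in WT mTEChi and 0 higher. The 3 untreated WT mTEChi libraries thus differed from 7.65 to 55.5 CPM in these genes, a range that reached nearly down to the Aire-KO value. The Taar genes, receptors for volatile amines in the nose, summed to 0.0317 CPM in Aire-KO and 1.13 CPM in WT mTEChi, 2.50 CPM in mTEChi and 5.79 CPM in mTEClo, and 3.98 CPM at 0 h. All 5 that could be classed were at least 3-fold lower in Aire-KO mTEChi. Of 15 Vmn2r genes classed, 4 were at least 3-fold lower in Aire-KO mTEChi, 2 higher and 6 within 2-fold.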
